A study of Mus musculus with 40 samples.

Results

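Prostaglandin synthesis enzymes, the enzyme that inactivates prostaglandins and the prostaglandin E2 receptors were followed through 40 Affymetrix arrays of neonatal mouse brain. The genes were taken from a list of 8 symbols: Ptgs1, Ptgs2, Ptges, Ptgds, Hpgd, Ptger2, Ptger3 and Ptger4. Of these, 7 were measured among the 19937 genes tested, each by 1 probe set. No probe set of the array annotation used here carries the symbol Ptgs1 alone, so Ptgs1 is not analysed here.

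The brains came from C57/Bl6 mice at postnatal day 9, in 8 groups of 5 arrays. Lipopolysaccharide (LPS) is a bacterial cell wall component that triggers innate immunity, and IDR-1018 is a synthetic immunomodulatory peptide, called the peptide here. Hypoxia-ischaemia (HI) injures 1 hemisphere of the neonatal brain. In both arms of the combined LPS/HI model, LPS followed the first dose by 4 h, HI came 14 h after LPS, and tissue was taken 6 h after HI. The first dose was the peptide in the LPS/HI+IDR injured and LPS/HI+IDR uninjured groups and vehicle in the LPS/HI injured and LPS/HI uninjured groups, and each arm gave the left (injured) and the right (uninjured) hemisphere. The LPS+IDR group had the peptide 4 h before LPS and the LPS group had LPS, with removal 6 h after LPS in both. The IDR and Vehicle groups had only peptide or vehicle, 10 h before removal. These last 4 groups are labelled as uninjured brain with no side, so a comparison of an LPS/HI hemisphere with them also differs in tissue piece, surgery and time since the first dose, which cannot be told apart. The labels for LPS alone name no vehicle dose before LPS. Nothing in the labels says that arrays are separate animals, so p-values measure the spread between these samples.

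Prostaglandins are lipid signals made from arachidonic acid. Phospholipases release the acid from membranes, the cyclooxygenases Ptgs1 and Ptgs2 turn it into prostaglandin H2, and terminal synthases such as Ptges (prostaglandin E2) and Ptgds (prostaglandin D2) finish the product. Prostaglandin E2 signals through 4 receptors encoded by Ptger1 to Ptger4, and Hpgd oxidises it to an inactive form. In brain, Ptgs2 is an inducible gene of neurons and, under systemic inflammation, of blood vessel cells, where Ptges is induced with it and the product drives fever. Because the tissue is bulk, fewer cells of a type and less RNA per cell cannot be told apart in any value below.

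All values are log2 RMA signals of 1 probe set, for which the authors' processing has corrected background and equalised the arrays, so they are compared between groups for a gene and never between genes. A gene is said to have risen or fallen only at a Benjamini-Hochberg adjusted p under 0.05 from limma over all 19937 genes. Array medians ran from 6.99 to 7.13. The brain label was checked on marker lists of neurons (11.81 to 11.94 as group means, lowest in both injured groups) and astrocytes (10.88 to 11.04), which gave signal in every group. The array LPS/HI injured replicate 3 stood apart: it carried signal of both Xist, the RNA of the silenced X chromosome in females, and of Y-linked genes, while its uninjured counterpart had Xist without Y-linked signal. Member, pathway and marker calls that rest on it are given with and without it. Sex-linked signal was also unequal between groups. Xist alone marked all 5 arrays of the LPS group, 2 of 5 in LPS+IDR, 1 of 5 in IDR and 2 of 5 in Vehicle. It marked 4 of 5 in LPS/HI uninjured and 3 of 5 in each of LPS/HI injured, LPS/HI+IDR injured and LPS/HI+IDR uninjured. Apart from LPS/HI injured replicate 3, Y-linked genes marked the others. Comparisons of LPS/HI groups with Vehicle or IDR are therefore also unequal in sex-linked signal.

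Ptgs2, the inducible cyclooxygenase, was the member with the widest range of group means, 1.04 on the log2 scale. It rose 6 h after LPS with and without the peptide. In the 250 bases before its RefSeq start, chr1:150099781-150100030 on the plus strand of GRCm38.p6, capitals mark matches on either strand to GGG and CC with any 5 bases between them (a loose NF-kB motif) and to TTNNGNAA (a loose C/EBP motif). These factors are textbook regulators of the gene, which is why its window is printed.
Ptgs2 promoter: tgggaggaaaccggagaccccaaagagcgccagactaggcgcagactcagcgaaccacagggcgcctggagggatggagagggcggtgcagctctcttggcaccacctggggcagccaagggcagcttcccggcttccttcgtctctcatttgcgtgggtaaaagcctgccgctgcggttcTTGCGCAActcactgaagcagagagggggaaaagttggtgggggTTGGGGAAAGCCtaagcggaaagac
The NF-kB match begins 23 bases before the start. The C/EBP matches begin 69 and 25 bases before it, and the nearer one overlaps the NF-kB match. Both motifs are common: of 32851 mouse promoter windows of 250 bases, 45.8% hold the NF-kB letters and 36.8% the C/EBP letters on 1 strand or the other. A match is therefore a description of the window and nothing more.

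Across the LPS arrays, Ptgs2 signal was 7.78, 8.17, 7.79, 7.96 and 8.38, against 7.12, 7.15, 7.27, 6.88 and 7.26 in the Vehicle arrays. Every LPS array lay above every Vehicle array, as in 1.19% of all genes. The log2 fold change was 0.88 ± 0.11 (SE, n = 5 each), a fold of 1.84, with a limma adjusted p of 9.67e-04. With the peptide, Ptgs2 signal was 7.79, 8.43, 7.79, 7.76 and 7.51 in the LPS+IDR arrays, against 7.29, 7.14, 7.29, 7.17 and 6.94 in the IDR arrays. Here too the groups did not overlap, with the LPS side higher as in 1.89% of all genes, and the log2 fold change was 0.69 ± 0.14 (limma adjusted p = 0.0198). That call was lost without IDR replicate 5 (adjusted p = 0.0697) and with all 8 groups sharing 1 estimate of the spread (adjusted p = 0.136). Ptgs2 was the 1 member of 7 called in each of these comparisons, where 0.833% of all genes passed for LPS against Vehicle and 1.47% for LPS+IDR against IDR.

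Sex-linked signal could be held level for Ptgs2. Among arrays with Xist and no Y-linked signal, Ptgs2 ran from 7.78 to 8.38 in LPS and from 7.12 to 7.15 in Vehicle. Among Y-positive arrays it ran from 7.51 to 8.43 in LPS+IDR and from 6.94 to 7.29 in IDR. Averaging the LPS effect over both peptide arms in 1 fit, an analysis chosen after seeing the data, gave a Ptgs2 log2 fold change of 0.78 (limma adjusted p = 9.88e-06). With the Xist level as a covariate it was 0.81 (adjusted p = 6.45e-05), and over the 20 fits that each left out 1 array it ran from 0.71 to 0.83, called in all 20.

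**Figure D1:**
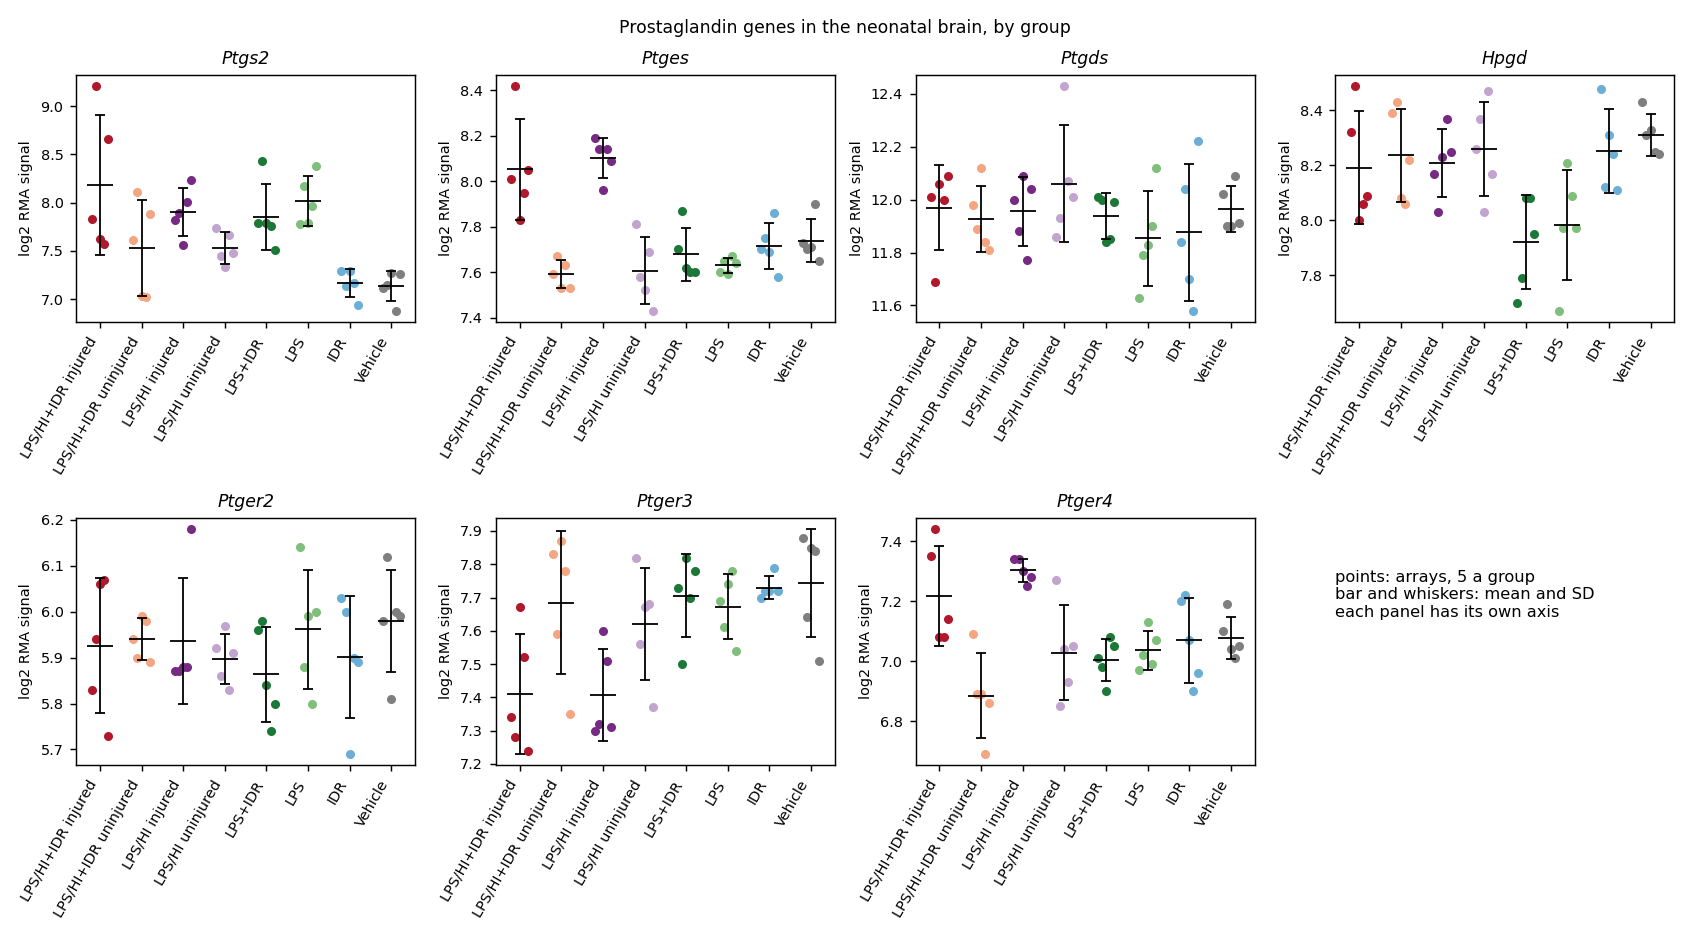
Each panel shows 1 measured gene, with log2 RMA signal on its own vertical axis and the 8 groups along the horizontal axis. Points are arrays, 5 a group, and bars with whiskers are the mean and SD. Ptgs2 is lowest in the IDR and Vehicle arrays, Ptges is high in both injured groups, and Hpgd is lowest in the LPS+IDR and LPS arrays.

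In the LPS/HI model, Ptgs2 sat above its Vehicle level in injured tissue. Its signal in the LPS/HI injured arrays was 7.82, 7.89, 7.56, 8.01 and 8.23, against 7.74, 7.45, 7.33, 7.66 and 7.48 in the LPS/HI uninjured arrays. The injured values overlapped the uninjured ones but lay above every Vehicle array, as in 4.46% of all genes. Against Vehicle, Ptgs2 rose in the injured hemisphere by 0.77 ± 0.11 (limma adjusted p = 6.64e-04), and by 0.85 without LPS/HI injured replicate 3. The uninjured hemisphere also lay wholly above Vehicle, as in 0.893% of all genes, with a log2 difference of 0.40 ± 0.09 that did not pass (adjusted p = 0.123).

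Between hemispheres, the Ptgs2 log2 difference without peptide was 0.37 ± 0.11 (limma adjusted p = 0.11), higher on the injured side in 5 of 5 numbers, by 0.08 to 0.75. Deviations of same-numbered arrays correlated at 0.39 to 0.65 in this arm, all above 0.1, the rule used here for treating numbers as pairs. For number 3 the 2 arrays were not each other's best match, and they differed in Y-linked signal. LPS/HI injured against Vehicle also met the rule, so meeting it does not show that same-numbered arrays share an animal. With the number as a replicate block the adjusted p was 0.0252, in a fit that called 10.2% of all genes, and without LPS/HI injured replicate 3 the unblocked difference was 0.46 (adjusted p = 0.033). With number 3 left out of both hemispheres and the block kept, it was 0.40 (adjusted p = 0.0385; 12.3% of all genes called). The Ptgs2 call between hemispheres therefore depends on whether the arrays are paired and, in the unblocked fit, on 1 array.

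With the peptide, Ptgs2 was more scattered. The LPS/HI+IDR injured arrays gave 7.83, 9.21, 7.62, 7.57 and 8.66, against 7.61, 8.11, 7.03, 7.02 and 7.88 in the LPS/HI+IDR uninjured arrays. Numbers 2 and 5 were the highest on both sides and numbers 3 and 4 the lowest. The difference was 0.65 ± 0.31 (limma adjusted p = 0.364), positive in 5 of 5 numbers. In this arm the arrays with Xist were the higher ones: injured arrays with Xist ran from 7.83 to 9.21 and Y-positive ones from 7.57 to 7.62, and uninjured arrays with Xist ran from 7.61 to 8.11 and Y-positive ones from 7.02 to 7.03. With 3 and 2 arrays a class this was not tested. Against the IDR group, Ptgs2 in the injured hemisphere with peptide was higher by 1.01 ± 0.26 (adjusted p = 0.0399), a call lost with the Xist level as a covariate (0.76, adjusted p = 0.122) and in 7 of the 10 fits that each left out 1 array. Averaged over both peptide arms, an analysis chosen after seeing the data, the Ptgs2 hemisphere difference was 0.51 and did not pass (limma adjusted p = 0.0708). It passed in 3 of the 20 fits that left out 1 array. With the number as a replicate block in both arms it passed (limma adjusted p = 2.66e-04), in a fit that called 19.8% of all genes. The uninjured hemisphere with peptide differed from IDR by 0.36 ± 0.18 (adjusted p = 0.991).

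The ordering of Ptgs2 group means ran from 8.18 ± 0.73 in LPS/HI+IDR injured through 8.02 ± 0.26 in LPS, 7.90 ± 0.24 in LPS/HI injured, 7.85 ± 0.34 in LPS+IDR, 7.53 ± 0.17 in LPS/HI uninjured, 7.53 ± 0.49 in LPS/HI+IDR uninjured and 7.17 ± 0.14 in IDR to 7.14 ± 0.16 in Vehicle (SD, n = 5 each). No neighbours in that order differed by more than the larger of their SDs. The injured hemisphere differed from LPS alone by -0.11 ± 0.13 (limma adjusted p = 0.72). The uninjured hemisphere lay below LPS without overlap, as in 0.742% of all genes, by -0.48 ± 0.12, and did not pass (adjusted p = 0.214).

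Ptges encodes the inducible prostaglandin E synthase that works downstream of Ptgs2. It was higher in injured hemispheres and gave no called difference after LPS alone. Its window and that of Ptger4 are printed because both genes were higher in injured tissue, with the same 2 motifs in capitals. Both lie on the minus strand of GRCm38.p6, Ptges at chr2:30903298-30903547 and Ptger4 at chr15:5244188-5244437, and are written in the direction of transcription.
Ptges promoter: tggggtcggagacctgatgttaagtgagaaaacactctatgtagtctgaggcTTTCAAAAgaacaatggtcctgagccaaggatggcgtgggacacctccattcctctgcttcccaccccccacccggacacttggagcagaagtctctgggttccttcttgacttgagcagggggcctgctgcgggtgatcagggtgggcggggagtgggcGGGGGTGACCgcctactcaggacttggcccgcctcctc
Ptger4 promoter: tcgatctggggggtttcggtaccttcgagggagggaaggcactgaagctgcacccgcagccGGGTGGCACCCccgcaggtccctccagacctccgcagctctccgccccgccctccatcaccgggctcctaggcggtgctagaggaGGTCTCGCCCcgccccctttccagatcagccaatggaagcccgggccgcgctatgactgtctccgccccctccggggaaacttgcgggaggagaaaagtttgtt
The Ptges window holds an NF-kB match 38 bases and a C/EBP match 198 bases before the start. The Ptger4 window holds NF-kB matches 189, 188 and 104 bases before it, of which the first 2 overlap, and no C/EBP match. None of the 3 printed windows holds TATAAA, TGACGTCA (a cyclic AMP response element), TGANTCA (AP-1) or TTCNNNGAA (STAT), letters found in 12.4%, 1.55%, 6.75% and 7.02% of all windows. That says only that these letters are not in these windows.

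In the LPS/HI injured arrays Ptges signal was 8.19, 8.14, 7.96, 8.14 and 8.09, against 7.81, 7.58, 7.52, 7.69 and 7.43 in the LPS/HI uninjured arrays. The hemispheres did not overlap, with the injured side higher as in 3.42% of all genes. Ptges rose by 0.50 ± 0.08, a fold of 1.41 (limma adjusted p = 0.00383), and by 0.54 without LPS/HI injured replicate 3 (adjusted p = 0.00378). In the LPS/HI+IDR injured arrays Ptges was 8.01, 8.42, 7.83, 7.95 and 8.05, against 7.59, 7.67, 7.53, 7.63 and 7.53 in the LPS/HI+IDR uninjured arrays. Again every injured array lay above every uninjured one, as in 3.18% of all genes, and the log2 fold change was 0.46 ± 0.09 (adjusted p = 0.0216). Leaving out LPS/HI+IDR injured replicate 5 or LPS/HI+IDR uninjured replicate 1, 3 or 5 took the adjusted p to between 0.0518 and 0.0566, with fold changes of 0.45 to 0.46. Ptges was the 1 member of 7 called between hemispheres in each arm, where 2.99% of all genes passed without peptide and 2.5% with it. Averaged over both arms, an analysis chosen after seeing the data, the Ptges difference was 0.48 (adjusted p = 1.93e-05), called in all 20 fits that left out 1 array. In that averaged fit 12.8% of all genes passed.

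The LPS arrays gave Ptges signals of 7.60, 7.65, 7.59, 7.67 and 7.64, against 7.73, 7.70, 7.71, 7.90 and 7.65 in the Vehicle arrays. That is a difference of -0.11 ± 0.06 (limma adjusted p = 0.896), with a 95% interval of -0.23 to 0.02, so a rise of the size seen in Ptgs2 lies outside it. The LPS+IDR arrays gave 7.70, 7.87, 7.62, 7.60 and 7.60, against 7.70, 7.75, 7.69, 7.86 and 7.58 in the IDR arrays, and these overlapped. The injured hemisphere exceeded Vehicle by 0.37 ± 0.07 (adjusted p = 0.00378) and LPS alone by 0.48 ± 0.06 (adjusted p = 6.72e-04), with no overlap in either, as in 4.46% and 4.5% of all genes. Without LPS/HI injured replicate 3 these were 0.40 and 0.51. In the peptide arm the injured hemisphere lay 0.34 ± 0.10 above IDR, which did not pass (adjusted p = 0.0618), and passed without LPS/HI+IDR injured replicate 3 (adjusted p = 0.035). The uninjured hemisphere without peptide differed from Vehicle by -0.13 ± 0.08 (adjusted p = 0.888). In the ordering of Ptges group means, both injured groups came first and the step from LPS/HI+IDR injured (8.05 ± 0.22) to Vehicle (7.74 ± 0.10) exceeded the larger SD, while the other 6 steps did not.

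**Figure D2:**
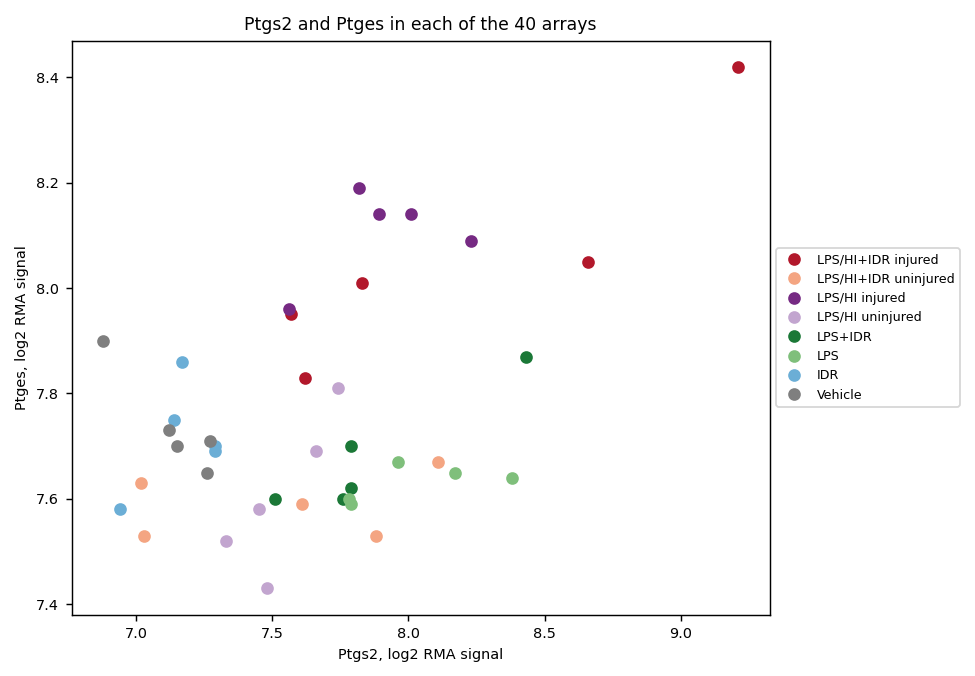
Each point is 1 of the 40 arrays, placed by its log2 RMA signal of Ptgs2 (horizontal) and of Ptges (vertical), coloured by group. LPS and LPS+IDR arrays lie right of the Vehicle and IDR arrays at similar Ptges signal, and the injured arrays lie above the uninjured ones, with LPS/HI+IDR injured replicate 2 at 9.21 for Ptgs2 and 8.42 for Ptges.

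Ptgds, the synthase that makes prostaglandin D2 in brain and choroid plexus, was called in none of the 14 comparisons of groups. Its group means ran from 11.85 ± 0.18 in LPS to 12.06 ± 0.22 in LPS/HI uninjured, a range of 0.21. The difference was -0.11 ± 0.08 for LPS against Vehicle (95% interval -0.29 to 0.07) and -0.10 ± 0.10 for LPS/HI injured against uninjured (95% interval -0.32 to 0.12). Changes smaller than these intervals were not detectable with 5 arrays a group.

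Hpgd encodes 15-hydroxyprostaglandin dehydrogenase, the first step in prostaglandin inactivation. Its signal in the LPS arrays was 7.67, 7.97, 8.21, 8.09 and 7.97, against 8.43, 8.31, 8.33, 8.25 and 8.24 in the Vehicle arrays. In the LPS+IDR arrays it was 7.70, 7.79, 8.08, 8.08 and 7.95, against 8.48, 8.12, 8.31, 8.24 and 8.11 in the IDR arrays. Every array given LPS lay below every array of its own control in both arms, by a smallest gap of 0.03 in each. Groups failed to overlap with the LPS side lower in 0.808% and 1.53% of all genes in these comparisons. The log2 difference was -0.33 ± 0.09 in each arm and passed in neither (limma adjusted p = 0.167 and 0.122).

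With both arms averaged in 1 fit, chosen after seeing the data, Hpgd fell by 0.33 on the log2 scale (SE 0.07, limma adjusted p = 0.00351), a call reached by 2.84% of all genes. It was -0.37 with the Xist level as a covariate (adjusted p = 0.00556, where 2.31% of all genes passed), and -0.36 to -0.29 over the 20 fits that each left out 1 array, all called. Levels in the LPS/HI groups were near the control level: 8.19 ± 0.21 in LPS/HI+IDR injured, 8.24 ± 0.17 in LPS/HI+IDR uninjured, 8.21 ± 0.12 in LPS/HI injured and 8.26 ± 0.17 in LPS/HI uninjured, against 8.25 ± 0.15 in IDR and 8.31 ± 0.08 in Vehicle (SD, n = 5 each). The uninjured hemisphere exceeded LPS alone by 0.28 ± 0.10, which did not pass (adjusted p = 0.935).

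Some marker genes of other cells were called after LPS at the same time. The endothelial list, 9 genes, averaged 8.30 ± 0.21 in LPS (7.96 to 8.51) and 8.60 ± 0.06 in Vehicle (8.53 to 8.67), and 8.32 ± 0.14 in LPS+IDR (8.20 to 8.54) against 8.59 ± 0.09 in IDR (8.46 to 8.71). Its member Tek, the angiopoietin receptor, fell by 0.85 after LPS (limma adjusted p = 0.00783) and by 0.80 in LPS+IDR against IDR (adjusted p = 0.00531). Of the 9 endothelial genes, 1 was lower at the threshold for LPS against Vehicle and 3 for LPS+IDR against IDR. Of all genes, 0.833% and 1.47% passed in these comparisons. The monocyte list, 6 measured genes, averaged 5.22 ± 0.08 in LPS (5.10 to 5.32) and 4.90 ± 0.10 in Vehicle (4.78 to 4.99), with 1 of 6 called. That gene was Ms4a6c, which rose by 0.98. It was also called for LPS+IDR against IDR (1.34). In that comparison 2 of 8 microglial genes were lower (P2ry12 -0.47, Siglech -0.36) and 1 of 7 choroid plexus genes was higher (Clic6, 0.33). These 2 lists had 0 called for LPS against Vehicle. The list of meninges and fibroblasts had 0 of 9 called in either, at 8.49 ± 0.14 in LPS and 8.66 ± 0.06 in Vehicle. The remaining lists had 0 called in both. The part of these shifts in the Ptgs2 and Hpgd results was not tested.

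Ptger2 and Ptger4 are the prostaglandin E2 receptors coupled to cyclic AMP production, and Ptger3 mainly inhibits it. Ptger4 signal in the LPS/HI injured arrays was 7.34, 7.34, 7.30, 7.25 and 7.28, against 7.27, 6.85, 7.04, 6.93 and 7.05 in the LPS/HI uninjured arrays. All but 1 uninjured value lay below the whole injured group. The difference was 0.27 ± 0.08 (limma adjusted p = 0.0779), 0.0267 with the number as a replicate block. Without LPS/HI injured replicate 3 it was 0.27 (adjusted p = 0.106), and with number 3 left out of both sides under the block it was 0.28 (adjusted p = 0.0478).

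With the peptide, Ptger4 was 7.35, 7.44, 7.08, 7.08 and 7.14 in the LPS/HI+IDR injured arrays, against 7.09, 6.89, 6.89, 6.69 and 6.86 in the LPS/HI+IDR uninjured arrays. Only uninjured replicate 1 reached into the injured range, and the difference was 0.33 ± 0.09 (limma adjusted p = 0.0735). With the number as a replicate block the adjusted p was 0.0221, although not every same-numbered pair in this arm correlated above 0.1. Ptger4 was higher on the injured side in 5 of 5 numbers in both arms. Averaged over the arms, an analysis chosen after seeing the data, the difference was 0.30 (adjusted p = 0.00139), called in all 20 fits that left out 1 array. In that averaged fit 12.8% of all genes passed.

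Against Vehicle (7.08 ± 0.07), Ptger4 in the injured hemisphere without peptide (7.30 ± 0.04) rose by 0.22 ± 0.06 (limma adjusted p = 0.0259), and by 0.23 without LPS/HI injured replicate 3 (adjusted p = 0.0342). The call was lost with the Xist level as a covariate (adjusted p = 0.107), with arrays centred on their medians (0.0511) and without LPS/HI injured replicate 1 or 2 or Vehicle replicate 1, 3 or 4 (0.0634 to 0.0781). Against LPS alone (7.04 ± 0.06) the log2 fold change was 0.27 ± 0.06 (adjusted p = 0.0153). That call was lost with arrays centred on their medians (adjusted p = 0.0549) and kept without LPS/HI injured replicate 3 (0.0218). It was also lost with the replicate block (0.0616), although the numbers of these 2 groups did not correlate as pairs. For LPS against Vehicle, the Ptger4 difference was -0.04 ± 0.06 (adjusted p = 0.953).

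Ptger3 group means were lower on the injured side in both arms, although neither hemisphere comparison passed on its own. Its signal in the LPS/HI injured arrays was 7.30, 7.32, 7.60, 7.51 and 7.31, against 7.82, 7.56, 7.67, 7.68 and 7.37 in the LPS/HI uninjured arrays. In the LPS/HI+IDR injured arrays it was 7.34, 7.28, 7.67, 7.52 and 7.24, against 7.83, 7.59, 7.87, 7.78 and 7.35 in the LPS/HI+IDR uninjured arrays. The groups overlapped in each arm, but all 10 same-numbered differences were below 0. The group difference, fitted without pairing, was -0.21 ± 0.09 without peptide (limma adjusted p = 0.288) and -0.27 ± 0.11 with it (adjusted p = 0.257). Without LPS/HI injured replicate 3 the first was -0.26 (adjusted p = 0.166).

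Averaged over the arms, an analysis chosen after seeing the data, Ptger3 fell by 0.24 on the injured side (limma adjusted p = 0.0353). In that fit 12.8% of all genes passed. The call was kept in 8 of the 20 fits that left out 1 array. With the replicate block the adjusted p was 0.00328, where 19.8% of all genes passed. In each arm alone Ptger3 passed under none of the planned settings, the block included. The lowest adjusted p over the settings that kept all arrays was 0.0926 without peptide and 0.0516 with it. With number 3 left out of both hemispheres and the block kept, the difference without peptide was -0.24 (adjusted p = 0.0805). Against the Vehicle arrays, at 7.88, 7.64, 7.85, 7.84 and 7.51, Ptger3 in LPS/HI injured fell by 0.34 (SE 0.09, adjusted p = 0.0301), and by 0.38 without LPS/HI injured replicate 3 (adjusted p = 0.0162). The call was lost with the Xist level as a covariate (adjusted p = 0.0976) and without LPS/HI injured replicate 1, 2 or 5 or Vehicle replicate 1, 3 or 4 (0.0639 to 0.0885). Against the IDR group, Ptger3 in LPS/HI+IDR injured fell by 0.32 (adjusted p = 0.0336) with no overlap, as in 3.22% of all genes, a call lost with the Xist covariate (adjusted p = 0.102) and in 8 of the 10 fits that each left out 1 array. In LPS/HI+IDR injured, arrays with Xist ran from 7.24 to 7.34 and Y-positive ones from 7.52 to 7.67. In IDR the array with Xist was at 7.72 and Y-positive ones ran from 7.70 to 7.79. This split was not tested.

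**Figure D3:**
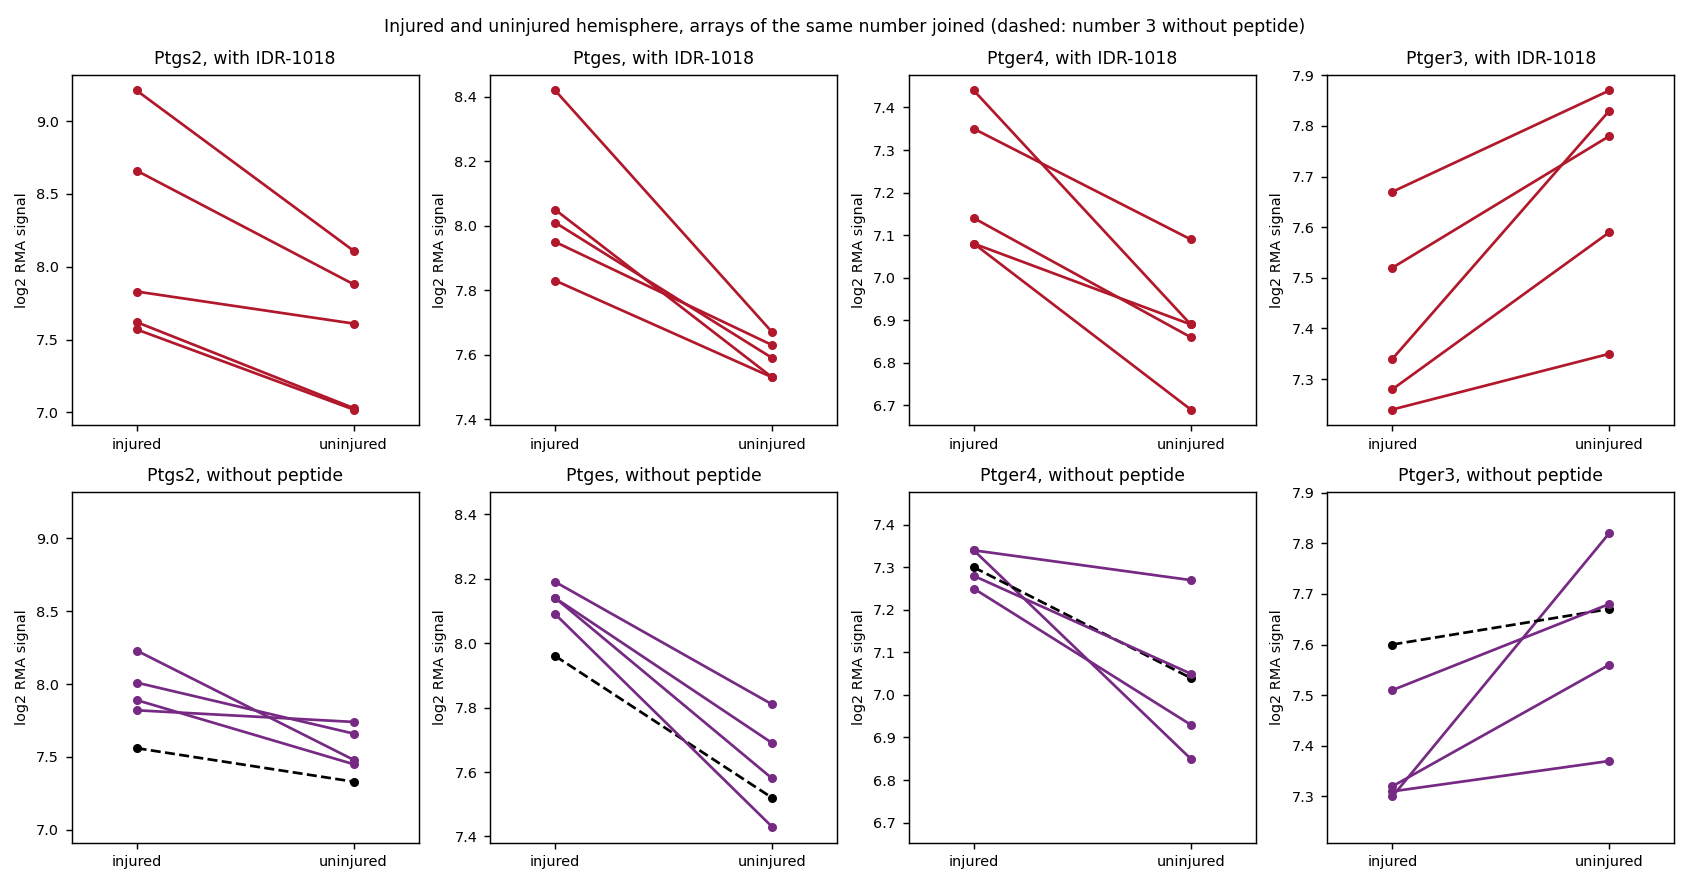
Log2 RMA signal of Ptgs2, Ptges, Ptger4 and Ptger3 in injured (left) and uninjured (right) hemispheres, with IDR-1018 in the upper row and without it in the lower row; lines join arrays of the same number and the dashed line is number 3 without peptide. Ptgs2, Ptges and Ptger4 are higher on the injured side for every number and Ptger3 lower for every number.

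Ptger2 was called in none of the 14 comparisons of groups, and its group means ran from 5.86 ± 0.11 in LPS+IDR to 5.98 ± 0.11 in Vehicle. No detection calls were used, so its distance from background is not known. For LPS against Vehicle the difference was -0.02 ± 0.07 (95% interval -0.18 to 0.14).

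Counted over the 7 measured genes, the injured hemisphere without peptide against Vehicle held 3 higher (Ptgs2, Ptges, Ptger4) and 1 lower (Ptger3), where 8.34% of all genes passed. The median log2 difference of the 7 was -0.01, and -0.013 over all genes. The injured hemisphere with peptide against IDR held 1 higher (Ptgs2) and 1 lower (Ptger3), where 5.87% passed. Against LPS alone, the injured hemisphere held 2 higher (Ptges, Ptger4) and none lower, where 5.43% passed, and without LPS/HI injured replicate 3 Ptger3 was also lower (-0.31, limma adjusted p = 0.0259). The uninjured hemisphere held 0 called members against Vehicle, against IDR in the peptide arm and against LPS, where 0.436%, 0.201% and 0.135% of all genes passed. These comparisons share arrays, so their counts are not independent.

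In the same comparison of LPS/HI injured with Vehicle, where 8.34% of all genes passed, every marker list but that of neutrophils held called genes. Of 6 monocyte markers 4 were higher, at list means of 5.31 ± 0.10 in LPS/HI injured (5.19 to 5.41) and 4.90 ± 0.10 in Vehicle (4.78 to 4.99). Of 8 microglial markers 2 were higher and 1 lower, at 7.92 ± 0.11 in LPS/HI injured and 7.83 ± 0.12 in Vehicle (7.69 to 8.00). Among endothelial genes 2 of 9 were higher and among astrocyte genes 2 of 7. In the oligodendrocyte lineage 1 of 7 was higher and 1 lower, in neurons 1 of 8 was lower and in choroid plexus 1 of 7 was lower. In the list of meninges and fibroblasts 2 of 9 were lower, at 8.39 ± 0.12 in LPS/HI injured and 8.66 ± 0.06 in Vehicle (8.57 to 8.72). Neutrophil markers had 0 of 9 called and 1 of 9 higher at an unadjusted p under 0.05. Without LPS/HI injured replicate 3, the counts were 3 of 6 higher for monocytes, 3 higher and 1 lower for microglia, 1 higher for endothelium and 4 higher and 1 lower for the oligodendrocyte lineage, with the other lists as before. The part of these shifts in the member results was not tested.

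**Figure D4:**
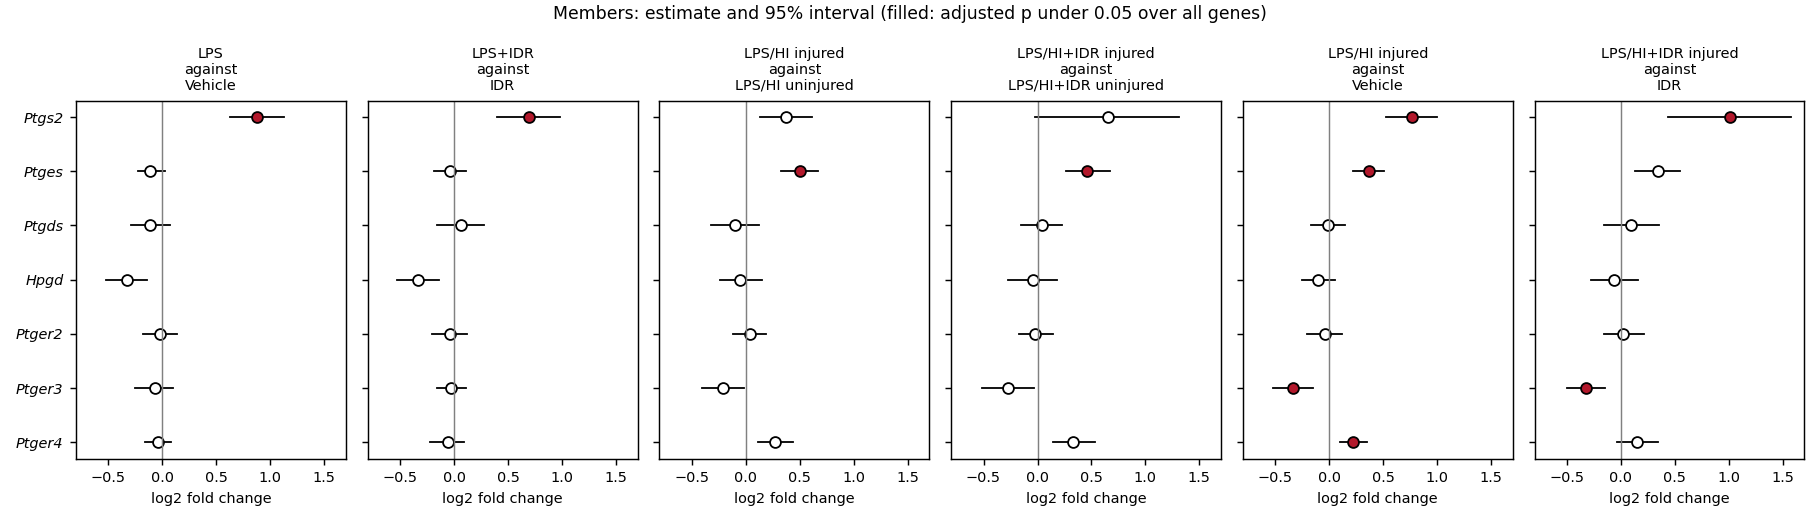
Log2 fold change (horizontal) with its 95% interval for the 7 measured genes in 6 comparisons, each named above its panel with the group on top of the fold change first. Filled points passed an adjusted p of 0.05 over all genes. Ptgs2 is filled in both LPS comparisons and Ptges in both hemisphere comparisons.

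Some marker genes of other cells were also called between hemispheres. Without peptide, 2.99% of all genes passed. The endothelial list averaged 8.61 ± 0.10 in LPS/HI injured (8.47 to 8.71) and 8.57 ± 0.12 in LPS/HI uninjured (8.41 to 8.72), with 1 of 9 genes called, Pecam1, which rose by 0.39. The microglial list, 8 measured genes, averaged 7.92 ± 0.11 in LPS/HI injured (7.77 to 8.06) and 8.01 ± 0.14 in LPS/HI uninjured (7.83 to 8.14), with 1 called: P2ry12, a marker of resting microglia, fell by 0.45. In the list of meninges and fibroblasts 2 of 9 were lower, Slc6a13 and Slc22a6, at list means of 8.39 ± 0.12 in LPS/HI injured (8.27 to 8.56) and 8.51 ± 0.15 in LPS/HI uninjured (8.34 to 8.73). The neutrophil list averaged 5.53 ± 0.05 in LPS/HI injured (5.45 to 5.59) and 5.41 ± 0.06 in LPS/HI uninjured (5.37 to 5.52), with 0 of 9 called and 1 of 9 higher at an unadjusted p under 0.05. Neuronal genes averaged 11.81 ± 0.04 in LPS/HI injured (at most 11.85) and 11.94 ± 0.04 in LPS/HI uninjured (at least 11.89), with 0 of 8 called and 1 of 8 lower at an unadjusted p under 0.05. In the oligodendrocyte lineage 1 of 7 was lower, Pdgfra (-0.35, limma adjusted p = 0.0453). The lists of monocytes, astrocytes and choroid plexus had 0 called. Without LPS/HI injured replicate 3 the P2ry12 call was lost (-0.46, adjusted p = 0.069) and 0 of 7 oligodendrocyte genes were called. Pecam1, Slc6a13 and Slc22a6 were still called. List means in LPS/HI injured were then 8.65 for endothelium, 7.95 for microglia, 8.37 for meninges and fibroblasts, 5.52 for neutrophils and 11.80 for neurons. With the peptide, 2 of 9 endothelial genes were higher and 1 of 9 of meninges and fibroblasts was lower, where 2.5% of all genes passed. The other lists had 0 called there. The part of these differences in the Ptges, Ptger4 and Ptger3 values was not tested.

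The peptide changed none of the 7 genes at this threshold. For LPS+IDR against LPS, Ptgs2 differed by -0.16 ± 0.16 (95% interval -0.50 to 0.17), and the intervals of the other 6 lay within 0.28 of 0. In the injured hemisphere the peptide difference was 0.28 ± 0.27 for Ptgs2 (95% interval -0.30 to 0.85), -0.05 ± 0.10 for Ptges and -0.08 ± 0.08 for Ptger4. Without LPS/HI injured replicate 3 these were 0.19, -0.09 and -0.08. In the uninjured hemisphere it was 0.00 ± 0.19 for Ptgs2 (95% interval -0.40 to 0.40) and -0.14 ± 0.09 for Ptger4, and for IDR against Vehicle it was 0.03 ± 0.09 for Ptgs2. In each of these 4 comparisons limma called 0 of 19937 genes (0% of all), so a count of 0 members does not set them apart. An unadjusted p under 0.05 was reached by 2674 genes for LPS+IDR against LPS. In the injured hemisphere, the uninjured hemisphere and IDR against Vehicle the counts were 277, 376 and 321. Chance alone gives about 1 in 20 genes, a share that only LPS+IDR against LPS exceeded.

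The change in the LPS effect with peptide was -0.19 ± 0.19 for Ptgs2 (95% interval -0.59 to 0.21, limma adjusted p = 0.867) and 0.00 ± 0.13 for Hpgd. The change in the hemisphere difference with peptide was 0.28 ± 0.36 for Ptgs2 (95% interval -0.47 to 1.03) and -0.04 ± 0.12 for Ptges (95% interval -0.30 to 0.22), or 0.19 and -0.07 without LPS/HI injured replicate 3. Neither interaction called a member, and they called 0.00502% and 0% of all genes. The second Ptgs2 interval includes values larger than the hemisphere difference itself.

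Of 34 further genes of the pathway, 33 were measured. For LPS against Vehicle 0 of 33 passed, against 0.833% of all genes, with 3 higher and 3 lower at an unadjusted p under 0.05. The smallest p was that of Pla2g4a, the cytosolic phospholipase that releases arachidonic acid: 7.17 ± 0.18 in LPS and 6.77 ± 0.12 in Vehicle, a log2 difference of 0.40 ± 0.09 (limma adjusted p = 0.056). For LPS+IDR against IDR, 1 was higher and 1 lower, where 1.47% of all genes passed. Abcc4, a transporter that exports prostaglandins, rose by 0.36 ± 0.08 to 8.18 ± 0.04 in LPS+IDR, against 7.82 ± 0.19 in IDR (adjusted p = 0.041). Ptgfr, the prostaglandin F receptor, fell by 0.30 on the log2 scale to 6.05 ± 0.09 in LPS+IDR, against 6.35 ± 0.05 in IDR (adjusted p = 0.0134).

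In the injured hemisphere without peptide against Vehicle, 3 of the 33 were higher and 1 lower, where 8.34% of all genes passed. Pla2g4a rose by 0.51 ± 0.08 (limma adjusted p = 0.00112), Abcc4 by 0.34 ± 0.07 (0.0101) and the thromboxane synthase Tbxas1 by 0.31 ± 0.09 (0.0435). Cbr1, a carbonyl reductase that can convert prostaglandin E2, fell by 0.23 (SE 0.06, adjusted p = 0.0329). Pla2g4a also rose by 0.51 ± 0.13 in the injured hemisphere with peptide against IDR (adjusted p = 0.0407). Against LPS alone, Tbxas1, the 1 of 33 called where 5.43% of all genes passed, rose in the injured hemisphere by 0.41 ± 0.08 (adjusted p = 0.0106). Without LPS/HI injured replicate 3 it rose by 0.47 (adjusted p = 0.00427), and against Vehicle all 4 genes were still called, with Alox5ap also higher (0.25, adjusted p = 0.0458).

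Between hemispheres 0 of the 33 passed without peptide (2.99% of all genes), also without LPS/HI injured replicate 3, with 2 higher and 3 lower at an unadjusted p under 0.05. With the peptide 1 passed (2.5% of all genes). That was Ltc4s, the leukotriene C4 synthase of the lipoxygenase branch, at 6.42 ± 0.07 in LPS/HI+IDR injured and 6.70 ± 0.11 in LPS/HI+IDR uninjured (limma adjusted p = 0.0454). Alox5ap, which presents arachidonic acid to 5-lipoxygenase, was the 1 pathway gene called in the uninjured hemisphere against Vehicle, at 7.74 ± 0.12 in LPS/HI uninjured and 7.33 ± 0.07 in Vehicle (adjusted p = 0.0154). The median difference of the 33 lay between -0.04 and 0.01 in all 14 comparisons of groups.

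**Figure D5:**
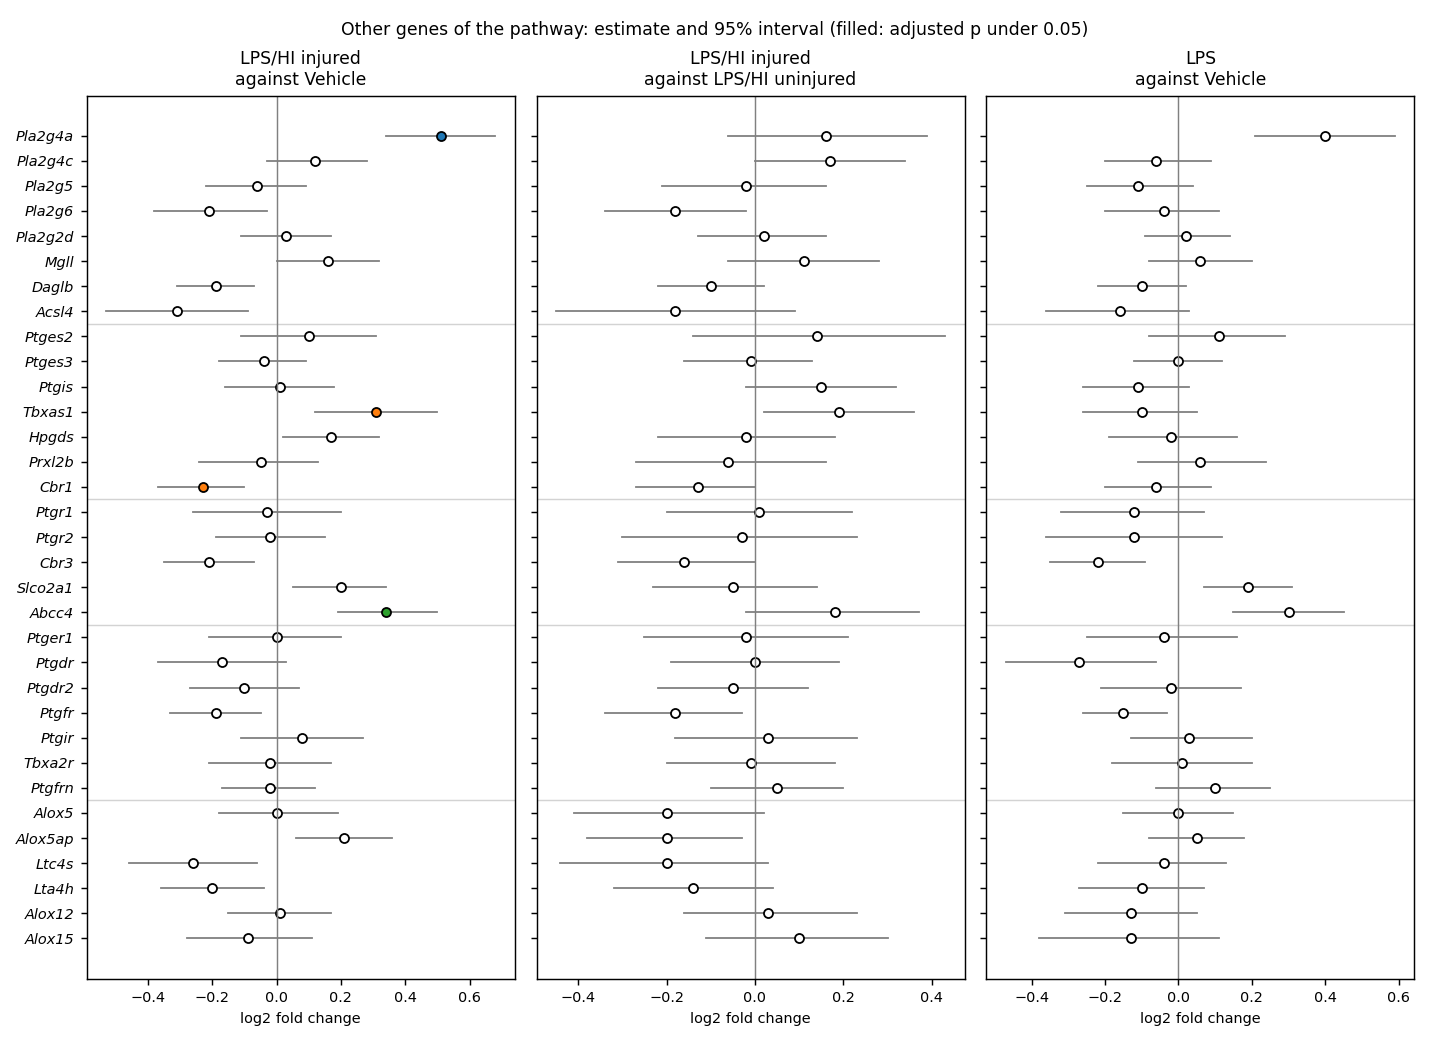
Log2 fold change (horizontal) with its 95% interval for the 33 other pathway genes, grouped from top to bottom as arachidonate supply, terminal synthases, inactivation and transport, receptors and lipoxygenase branch. Filled points passed an adjusted p of 0.05 over all genes: 4 for LPS/HI injured against Vehicle and 0 in the other panels.

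The genes whose 8 group means followed each member most closely were taken among 770 or 771 genes whose means ranged over at least 0.5. For Ptgs2 they were Ch25h, which makes 25-hydroxycholesterol (Pearson r = 0.959), the metallothionein Mt1 (0.953) and the interleukin-4 receptor chain Il4ra (0.946). For Ptges they were B3gnt5, a glycosyltransferase (0.991), the membrane protein Emp1 (0.99) and podoplanin, Pdpn (0.989). Emp1 had a group mean of 9.44 in LPS/HI injured, against 7.65 in LPS/HI uninjured, and 7.77 in LPS, against 7.92 in Vehicle. For Ptger4 they were Mak (0.978), Rln1 (0.976) and Tuft1 (0.972), and for Ptger3 Hs3st5 (0.992), Samd12 (0.986) and Ldoc1 (0.984). These correlations rest on 8 points that share arrays with the members and describe likeness of pattern only.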

How the data were processed

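Total RNA of 40 brain samples was hybridised to Affymetrix arrays. The deposited values are log2 RMA signals, 1 per probe set and array, made by the authors with RMA and the affy package, per the submitters' processing notes, which give no versions. RMA equalises the arrays, so a shift shared by all genes would not be visible. Of 34760 probe sets, 21640 carry 1 symbol in the array annotation, 1321 several and 11799 none. The highest-mean probe set was kept for each of 19937 genes, with no signal filter.

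Groups were compared with limma 3.58.1 (lmFit, eBayes) in R 4.3.3 over the arrays of the groups compared, in 14 comparisons and 2 interactions, with Benjamini-Hochberg adjustment over all genes at 0.05. Precision is set by the 5 arrays a group: 95% intervals reached 0.15 to 0.18 to either side of a log2 difference in the median gene. The fits were tested on simulated data first. The 8 genes, the pathway list and the marker lists were chosen with earlier results of these data known. Genes named outside the members are the called pathway genes, the called marker genes shown beside a result, and the 3 genes most like each member. The pathway gene with the smallest p is named only for LPS against Vehicle, although other comparisons also had none called. Marker choices in the text were made after their values were seen.

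Same-numbered arrays were taken as pairs where every pair of deviations from the group means correlated above 0.1. This held for LPS/HI injured against uninjured without peptide (0.501, 0.431, 0.392, 0.465 and 0.646) and for LPS/HI injured against Vehicle (0.116 to 0.443), and in no other comparison. LPS/HI injured and Vehicle are differently treated groups, so meeting the rule does not show that same-numbered arrays share an animal. Between hemispheres with peptide the rule failed, at correlations of 0.0884 to 0.589. The class of sex-linked signal matched there in 5 of 5 numbers, and in 4 of 5 without peptide. Promoter windows come from RefSeq on GRCm38.p6. Alternatives were 1 fit over all groups, a signal filter at the 25th percentile, the replicate block, the Xist level as a covariate, the mean of all probe sets of a gene, median centring, an intensity trend and leaving out each array. Averages over both peptide arms and the removal of number 3 from both hemispheres were added after seeing the data.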

Additional observations from a re-analysis of the deposited data

Results flagged for a closer look

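Within groups, 3 of 56 sets of 5 arrays held an array far from the others by Dixon's test, where chance gives about 1 in 20. Ptgds was low in LPS/HI+IDR injured replicate 2 (11.69), below the other 4 arrays of that group, which reached up to 12.09, and the same array had the highest Ptgs2 and Ptges signals of all 40. Ptger2 was high in LPS/HI injured replicate 5 (6.18), against 5.87 to 5.88 in the others. Ptger3 was high in IDR replicate 4 (7.79), against 7.70 to 7.72 in the others, a group with an SD of 0.03.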

How the results depend on the processing

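No member's difference changed direction while called, and across all settings planned at the outset 1974 of the member values kept their side of the threshold, 13 gained a call and 41 lost one. Counts of called members moved as follows. With all 8 groups in 1 fit, 0 were called for LPS+IDR against IDR (1 in the comparison's own fit) and 2 for LPS/HI injured against uninjured and for LPS/HI+IDR injured against uninjured (1 each), and 3 for LPS/HI+IDR injured against IDR (2). With the replicate block, counts were 3 and 3 between hemispheres, 0 for LPS/HI+IDR injured against IDR (2) and 1 for LPS/HI injured against LPS (2), where Ptger4 had an adjusted p of 0.0616 and the numbers do not pair. The block changed no member call for LPS/HI injured against Vehicle. The block for LPS/HI+IDR injured against uninjured gave Ptgs2 0.65 (adjusted p = 0.00759) and Ptger4 0.33 (0.0221), although its numbers did not meet the pairing rule. With number 3 also left out of both hemispheres without peptide, 3 were called under the replicate block. With the Xist level as a covariate, 2 were called for LPS/HI+IDR injured against uninjured, 2 for LPS/HI injured against Vehicle (4) and 0 for LPS/HI+IDR injured against IDR. Median centring left 1 for LPS/HI injured against LPS and 3 for LPS/HI injured against Vehicle, and leaving out low-signal genes gave 3 for LPS/HI injured against LPS. Leaving out 1 array at a time gave 0 to 1 for LPS+IDR against IDR, 1 to 2 for LPS/HI injured against uninjured, 0 to 1 for LPS/HI+IDR injured against uninjured, 2 to 4 for LPS/HI injured against Vehicle, 0 to 3 for LPS/HI+IDR injured against IDR and 2 to 3 for LPS/HI injured against LPS. The cause of these moves was not tested. Counts over all genes moved by over 1.5 times as follows: LPS against Vehicle 166, and 86 with the Xist covariate; LPS/HI injured against uninjured 596, and 1431 in the 8-group fit and 2032 with the block; the same with peptide 498, and 1432, 894 and 1083 with the 8-group fit, the block and the Xist covariate; LPS/HI injured against Vehicle 1663, and 917 with the Xist covariate; LPS/HI+IDR injured against IDR 1171, and 1909 in the 8-group fit and 498 with the block. LPS/HI injured against LPS gave 1082, and 1863 in the 8-group fit. LPS/HI uninjured against Vehicle gave 87, and 52 with the Xist covariate. LPS/HI+IDR uninjured against IDR gave 40, and 67 in the 8-group fit and 21 with the Xist covariate. LPS/HI uninjured against LPS gave 27, and 69 and 13 in those settings. The peptide by LPS interaction gave 1, and 0 in the 8-group fit, with low-signal genes left out and with the block. Leaving out 1 array at a time gave 285 to 641 for LPS/HI injured against uninjured, 230 to 515 for the same with peptide, 51 to 95 for LPS/HI uninjured against Vehicle, 964 to 1798 for LPS/HI injured against Vehicle, 21 to 66 for LPS/HI+IDR uninjured against IDR, 705 to 1196 for LPS/HI+IDR injured against IDR, 15 to 27 for LPS/HI uninjured against LPS, 622 to 1215 for LPS/HI injured against LPS and 0 to 2 for the peptide by LPS interaction, so the shares of all genes called that stand beside the members vary with single arrays. Each member has 1 probe set, so signal specific to that probe set cannot be separated from the gene's level.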
